A study of Mus musculus with 8 samples.

Results

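The genes described here are 10 transcription factor and regulator genes of the immediate early response in mouse spleen. They were taken by symbol: Fos, Fosb, Jun, Junb and Jund of the AP-1 family, Egr1, Egr2 and Egr3 of the Egr family, and Atf3 and Ier2. All 10 were found among the 52636 genes counted, and all 10 were among the 17327 kept for testing by a filter on low counts. The groups were C57BL/6 spleens, from animals 6 weeks old, in 4 sets of 2 libraries: wild type and Lmna R527C mutant at day 0, both unirradiated, and both genotypes taken 7 days after 4 Gy. Spleens were flash frozen on dry ice, per the labels' protocols. The mutation is a substitution in lamin A and C, proteins of the nuclear lamina. The labels do not say whether it was carried on 1 or both alleles, nor which sex, litter or batch each sample came from. According to the series' design text, the study asked by what mechanism the mutation brings on senescence.

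Immediate early genes are transcribed within minutes of a signal, without new protein synthesis, and their messages decay quickly. Growth factors, antigen receptor signals, stress and the handling of tissue can all switch them on. Fos and Jun family proteins pair through leucine zippers to form AP-1, which binds DNA at the TGANTCA element. Egr proteins are zinc finger factors, and Egr2 and Egr3 are known in lymphocytes as targets of antigen receptor signalling that restrain T cell activation. Atf3 is a stress-induced partner and repressor of the same bZIP class, and Ier2 is a rapidly induced nuclear regulator. Jund is the Jun family member that is known for steady expression in resting cells.

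Regions before the transcript start were available for 7 of the 10 genes, from RefSeq sequence on GRCm38.p6: Fos, Fosb, Jun, Junb, Jund, Egr2 and Atf3. The 250 bases before the start are printed for 4 of them, to set side by side genes that took different courses over the libraries. Capitals mark matches, on either strand, to 8 elements. These were TGACG (the core of the cyclic AMP response element), the full palindrome TGACGTCA, the AP-1 element TGANTCA, the CArG box bound by serum response factor, the TATAAA box, the CCAAT box, the GC box GGGCGG and the Egr element GCGNGGGCG. TGACG lies within TGACGTCA, and GCGNGGGCG can overlap GGGCGG. A match on the other strand appears as the reverse complement.
Fos, chr12:85473640-85473889, plus strand: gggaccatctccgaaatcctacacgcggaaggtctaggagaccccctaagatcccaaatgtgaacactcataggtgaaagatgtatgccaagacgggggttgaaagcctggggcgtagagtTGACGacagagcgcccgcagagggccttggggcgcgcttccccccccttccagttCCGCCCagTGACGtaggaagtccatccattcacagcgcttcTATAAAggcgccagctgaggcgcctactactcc
Fosb, chr7:19310046-19310295, minus strand: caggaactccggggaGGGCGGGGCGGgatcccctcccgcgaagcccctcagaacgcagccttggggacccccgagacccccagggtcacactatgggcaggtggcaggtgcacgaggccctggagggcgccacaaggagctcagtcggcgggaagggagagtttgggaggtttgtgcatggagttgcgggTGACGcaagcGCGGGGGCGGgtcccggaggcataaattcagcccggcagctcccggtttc
Junb, chr8:84978749-84978998, minus strand: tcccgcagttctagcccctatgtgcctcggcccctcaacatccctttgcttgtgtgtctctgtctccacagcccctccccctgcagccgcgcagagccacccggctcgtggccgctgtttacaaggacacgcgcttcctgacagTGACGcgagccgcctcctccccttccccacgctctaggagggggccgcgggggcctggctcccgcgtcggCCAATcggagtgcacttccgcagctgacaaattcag
Egr2, chr10:67537316-67537565, plus strand: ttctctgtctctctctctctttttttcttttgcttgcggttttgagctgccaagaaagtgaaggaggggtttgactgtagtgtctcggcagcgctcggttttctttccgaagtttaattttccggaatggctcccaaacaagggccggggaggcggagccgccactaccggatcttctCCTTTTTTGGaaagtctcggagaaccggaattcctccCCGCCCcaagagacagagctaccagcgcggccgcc

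Fos held TGACG at 129 and 66 bases before its start and TATAAA at 33, Fosb held TGACG at 60, and Junb held it at 106. TGACG occurs in 17.8% of all 32851 windows of this length. Egr2 has several annotated starts, and the window before the first, at base 67535499, held GC boxes and no CArG box. The printed window lies in the first intron of the longer GENCODE transcripts. It holds a CArG box 72 bases before the start, an element present in 1.47% of windows. As Egr2 has several windows, this share per window does not tell how rare the box is per gene. A second CArG box lies before a start further downstream, beside a TGACG on the other strand, in the stretch chr10:67537793-67537822 on the plus strand.
Egr2, downstream CArG box: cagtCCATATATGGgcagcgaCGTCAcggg
No TGANTCA, found in 6.75% of all windows, lay in the printed windows. These matches describe the letters only and were not tested as sites.

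The libraries held 12100784 to 19455470 counts, and a floor of 3 counts corresponded to 0.131 to 0.350 CPM (counts per 1e+06, scaled by the trimmed mean of M values, TMM). The irradiated mutant libraries stood apart from each other: in that group, 42.7% of genes differed by over 2-fold between the replicates, against 27% in irradiated wild type and 3.93% and 6.34% in the unirradiated groups. Irradiated mutant replicate 1 had 79.0 CPM in 8 summed B cell markers and 162 CPM in 8 summed T cell markers, the lowest of the 8 libraries. It also had 129900 CPM in 8 erythroid markers, the highest, while irradiated mutant replicate 2 had the lowest erythroid sum, 11600 CPM, and the highest sum of 8 stroma markers, 1726 CPM. None of the B cell, T cell and erythroid lists had a gene at 0 counts in any library. The B cell marker Fcer2a, however, had 1 count in irradiated mutant replicate 1, under the floor of that library. Sex-linked transcripts split between the unirradiated and the irradiated libraries. The X-inactivation RNA Xist was at 1029 to 1776 CPM in the irradiated libraries and at most 0.262 CPM in the unirradiated ones. In contrast, 4 Y-linked genes were at 17.96 to 122.3 CPM in the unirradiated libraries and at 0 counts in every irradiated library. By these transcripts the unirradiated libraries read as male and the irradiated ones as female, although the labels give no sex. Every irradiation contrast below is therefore also a contrast of sex and of day, and these cannot be told apart here. In tissue RNA, fewer cells of a type and less RNA per cell cannot be told apart either.

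The genes of the series covered a wide span of levels. Per kilobase of exon, the mean over the 8 libraries was 113 CPM per kb for Jund, 38.5 for Junb and 35.2 for Ier2. Egr3, Jun and Egr1 had 6.92, 6.30 and 6.11 CPM per kb, Fos, Egr2 and Atf3 had 2.24, 2.02 and 1.81, and Fosb had 0.257. Junb and Ier2 overlapped across libraries (16.3 to 53.2 and 13.8 to 58.3 CPM per kb), as did the neighbours Egr3, Jun and Egr1 and the neighbours Fos, Egr2 and Atf3. Fos, the gene most often read as a mark of fresh activation, ranked low. It stood above 27.7% to 32.5% of tested genes per length in the unirradiated libraries. In both irradiated wild-type libraries and irradiated mutant replicate 2 it stood above 49.8% to 52.9%, and in irradiated mutant replicate 1 above 23.4%.

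**Figure D1:**
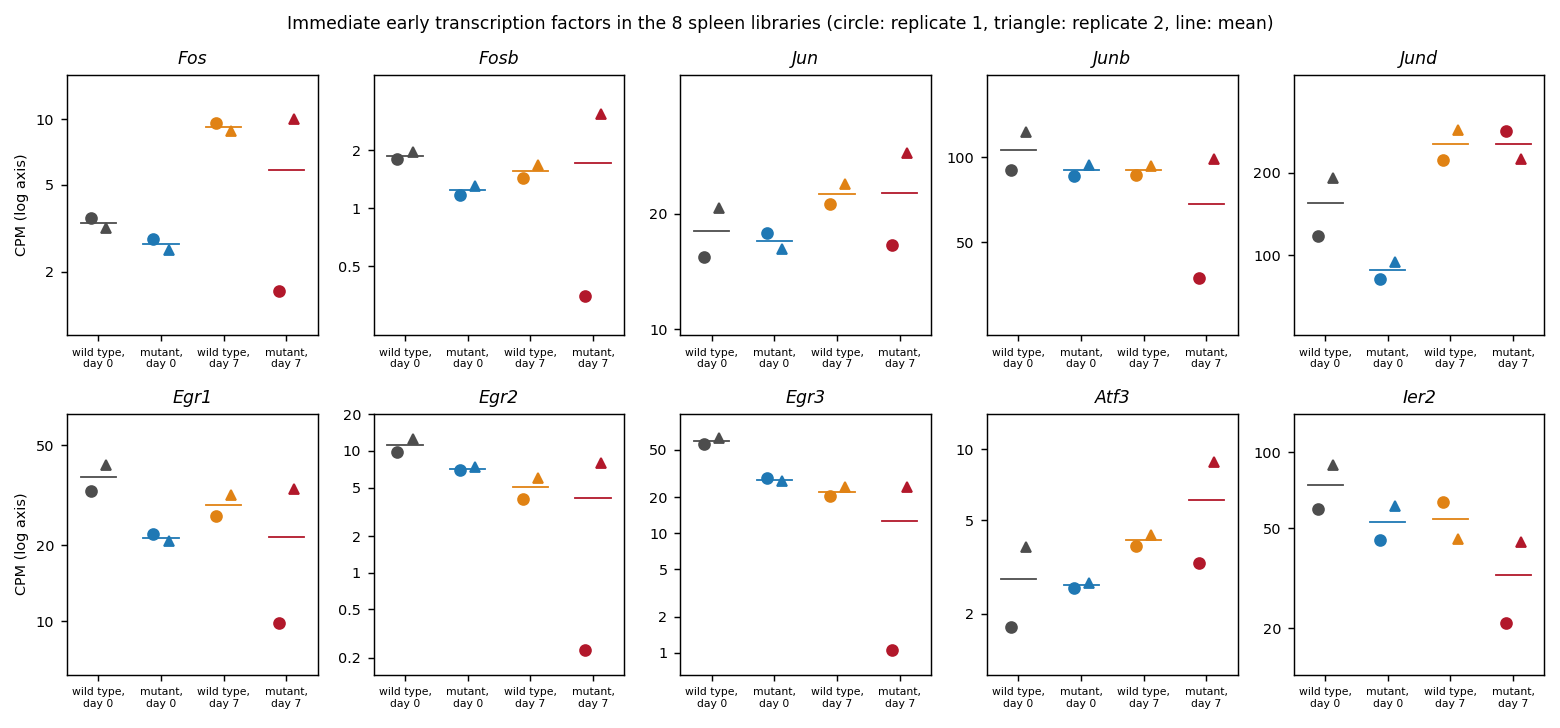
Level of each of the 10 genes in CPM (log axis) in the 8 libraries, with circles for replicate 1, triangles for replicate 2 and lines for the group mean. Irradiated mutant replicate 1 is the lowest library for 7 of the 10 genes, as for 22.5% of all tested genes, while Jund is high in all 4 irradiated libraries and Egr3 is highest in unirradiated wild type.

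Fos (ENSMUSG00000021250.13, chromosome 12 of GRCm38, start 85473890, end 85477273) encodes c-Fos, which needs a Jun partner to bind DNA. Its level was 3.52 and 3.16 CPM in unirradiated wild-type spleens against 2.84 and 2.51 in their mutant counterparts, with 9.64 and 8.83 CPM for wild type and 1.64 and 10.02 for mutants after irradiation. Thus 3 irradiated libraries lay above all unirradiated ones, as in 15.7% of all tested genes, and irradiated mutant replicate 1 lay below all of the unirradiated ones. The log2 fold change with irradiation was 1.46 ± 0.72 (SE) in wild type (edgeR quasi-likelihood test, adjusted p = 0.329) and 1.15 ± 0.71 in mutants (adjusted p = 0.370). Neither passed the threshold of 0.05.

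Without irradiated mutant replicate 1, Fos passed in both irradiation contrasts. Its log2 fold change was then 1.39 ± 0.35 in wild type (edgeR adjusted p = 0.0310), in a fit that called 13.0% of genes, and 1.85 ± 0.40 in mutants (adjusted p = 0.0281), in a fit that called 6.89%. The lone irradiated mutant library is assumed in that fit to vary like the other groups. The common dispersion, a measure of the spread between replicates, was 0.152 with all libraries and 0.0688 without that one. Leaving out irradiated mutant replicate 2 gave nearly the same dispersion (0.0683), and Fos again passed in wild type (1.40 ± 0.36, adjusted p = 0.0333, beside 14.2% of all genes), while in mutants its sign turned (-0.86).

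Fosb (ENSMUSG00000003545.3, chromosome 7, start 19302696, end 19310051), the second Fos family member, was the lowest of the 10 genes. It was at 1.80 and 1.96 CPM in unirradiated wild-type spleens against 1.18 and 1.30 in their mutant counterparts, with 1.44 and 1.68 CPM for wild type and 0.350 and 3.10 for mutants after irradiation. The value of 0.350 rests on 3 counts. The irradiated mutant libraries were thus both the lowest and the highest of the 8. Fosb made up 13.5% to 18.9% of the length-scaled sum of Fos and Fosb in the unirradiated libraries and 5.33% to 10.4% in the irradiated ones, irradiated mutant replicate 1 included.

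Jund (ENSMUSG00000071076.6, chromosome 8, start 70698949, end 70700616) was the most abundant of the 10 genes. It was at 118 and 192 CPM in unirradiated wild-type spleens against 81.6 and 94.6 in their mutant counterparts, with 223 and 286 CPM for wild type and 284 and 225 for mutants after irradiation. All 4 irradiated libraries lay above all 4 unirradiated ones, as did 12.8% of all tested genes. Irradiated mutant replicate 1, low for most of the other genes, was the second highest library for Jund. The log2 fold change with irradiation was 0.72 ± 0.35 in wild type (edgeR adjusted p = 0.330) and 1.53 ± 0.36 in mutants (unadjusted p = 0.00291, adjusted p = 0.0981).

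The call for Jund in mutants depended on the fit. It had adjusted p = 0.00207 with DESeq2, which called 11.3% of all genes, and 0.0279 without the low-count filter, where 7.27% were called. Without irradiated mutant replicate 1 it had adjusted p = 0.0494, and without replicate 2 it had 0.0115, beside 24.6% of all genes called. It did not pass in the fit of the 2 mutant groups alone (1.54 ± 0.36, edgeR adjusted p = 0.241), with other size factors (0.101), or without unirradiated mutant replicate 1 (0.559) or 2 (0.565). The size lay between 1.30 and 1.62 in all the fits named. The difference between the irradiation effects of the genotypes was 0.81 ± 0.50 (adjusted p = 1.0), so a difference in response was not shown.

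Junb (ENSMUSG00000052837.6, chromosome 8, start 84974484, end 84978718), a Jun protein with weaker transactivation than c-Jun, was steadier. It was at 89.9 and 123 CPM in unirradiated wild-type spleens against 86.0 and 93.7 in their mutant counterparts, with 86.5 and 92.9 CPM for wild type and 37.5 and 98.8 for mutants after irradiation. Leaving aside the value of 37.5 CPM, the highest library was 1.42 times the lowest. Junb overlaps Prdx2, a peroxidase gene on the other strand, by 351 bases. Prdx2 was at 441.9 to 3606 CPM, highest in irradiated mutant replicate 1. The sources used here do not state whether counting used strand, so reads in the overlap could belong to either gene, and the count of Junb is uncertain to that extent.

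Jun (ENSMUSG00000052684.4, chromosome 4, start 95049034, end 95052222) encodes c-Jun and had the narrowest range of the 10. It was at 15.4 and 20.7 CPM in unirradiated wild-type spleens against 17.8 and 16.1 in their mutant counterparts, with 21.2 and 23.9 CPM for wild type and 16.6 and 28.9 for mutants after irradiation. The ratio of highest to lowest library was 1.87. Its log2 fold changes with irradiation were 0.32 ± 0.34 in wild type (edgeR adjusted p = 0.631) and 0.43 ± 0.34 in mutants (adjusted p = 0.485). In wild type both irradiated libraries lay above both unirradiated ones, as in 29.7% of tested genes, and in mutants the libraries overlapped. The antisense gene Junos overlaps 689 bases of Jun but had at most 1.95 CPM.

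Within the Jun family the make-up moved with irradiation. Jund held 53.2% to 65.8% of the length-scaled sum of Jun, Junb and Jund in the unirradiated libraries and 72.2% to 88.8% in the irradiated ones. Junb held 30.5% to 40.7% and 8.51% to 23.0%. The ranges did not overlap for either gene, with or without irradiated mutant replicate 1, which had the most Jund and the least Junb. Shares within a family show unequal levels of its members, and do not by themselves show which of them moved. By level, Jund was at 81.6 to 192 CPM unirradiated and 223 to 286 irradiated, a separation that 12.8% of all tested genes had. Junb was at 86.0 to 123 CPM unirradiated. After irradiation it was at 86.5 to 98.8 CPM, apart from 37.5 in irradiated mutant replicate 1.

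**Figure D2:**
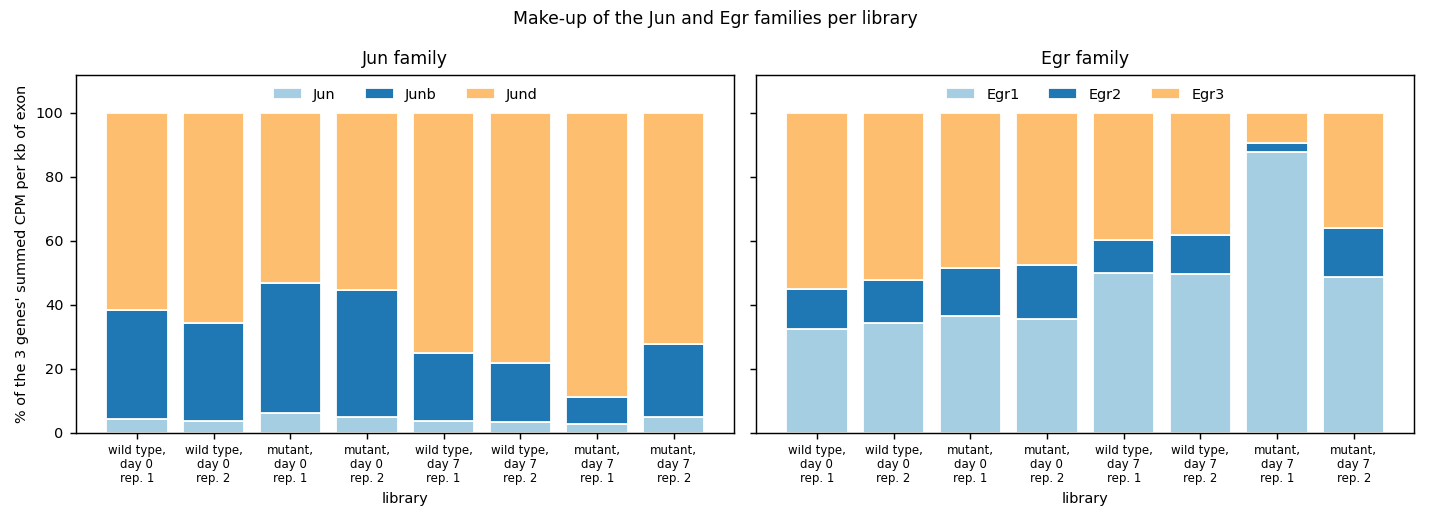
Share of each gene in the length-scaled sum (CPM per kb of exon) of the Jun family (left) and the Egr family (right) in each of the 8 libraries, with each bar adding to 100%. Jund takes 72.2% to 88.8% of the Jun family in the irradiated libraries. Egr1 takes 87.7% of the Egr family in irradiated mutant replicate 1, where Egr1, Egr2 and Egr3 were each at their lowest level.

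Egr3 (ENSMUSG00000033730.4, chromosome 14, start 70077203, end 70082614) showed the widest differences between groups. It was at 55.3 and 62.2 CPM in unirradiated wild-type spleens against 29.1 and 27.1 in their mutant counterparts, with 20.5 and 24.1 CPM for wild type and 1.05 and 24.5 for mutants after irradiation. All 4 irradiated libraries lay below all 4 unirradiated ones, as did 14.2% of all tested genes. Unirradiated mutants lay below unirradiated wild type, and irradiated mutant replicate 1 had 9 counts in all.

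In the fit of all libraries Egr3 did not pass for genotype without irradiation (log2 fold change -1.06 ± 0.94, edgeR adjusted p = 1.0) or for irradiation in wild type (-1.40 ± 0.96, adjusted p = 0.452). In fits of only the libraries compared it passed both. These gave -1.04 ± 0.16 for genotype (adjusted p = 0.00586), with 2.81% of 16665 genes called, and -1.45 ± 0.29 for irradiation in wild type (adjusted p = 0.0280), with 6.96% of 15902 called. Its irradiation difference in wild type also passed without the low-count filter (-1.50 ± 0.42, adjusted p = 0.0113), beside 5.35% of all genes called. The sizes were alike in all these fits, and the calls differed with the standard error.

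In irradiated mutants the Egr3 result rested on which library was kept. The irradiation difference in mutants was -1.11 ± 0.95 with both (adjusted p = 0.509), -0.25 ± 0.29 without replicate 1 (adjusted p = 0.615), and -4.88 ± 0.44 without replicate 2 (adjusted p = 4.51e-04). The genotype difference 7 days after irradiation was -0.78 ± 0.95 with both, 0.18 ± 0.29 without replicate 1 and -4.46 ± 0.44 without replicate 2 (adjusted p = 0.00672), in a fit that called 1.53% of genes.

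Egr2 (ENSMUSG00000037868.15, chromosome 10, start 67535475, end 67542188), whose CArG boxes are printed above, was lower than Egr3 in every library. It was at 9.76 and 12.6 CPM in unirradiated wild-type spleens against 6.94 and 7.40 in their mutant counterparts, with 4.06 and 6.01 CPM for wild type and 0.234 and 7.97 for mutants after irradiation. The value of 0.234 CPM stands for 2 counts, under the floor of 0.350 CPM in that library. Irradiated mutant replicate 2, with 144 counts, lay within the range of the unirradiated libraries. Its irradiation difference in wild type was -1.15 ± 1.0 with all libraries (edgeR adjusted p = 0.550) and -1.22 ± 0.35 without irradiated mutant replicate 1 (adjusted p = 0.0497, beside 13.0% of all genes called). Without replicate 2 the fitted values were -5.04 ± 0.71 for irradiation in mutants (adjusted p = 0.00162) and -4.44 ± 0.72 for genotype after irradiation (adjusted p = 0.0246), but both rest on the library with 2 counts and are no bound.

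Egr1 (ENSMUSG00000038418.7, chromosome 18, start 34859823, end 34864984), the most widely expressed Egr gene, differed less. It was at 33.0 and 41.7 CPM in unirradiated wild-type spleens against 22.2 and 20.8 in their mutant counterparts, with 26.2 and 31.8 CPM for wild type and 9.81 and 33.6 for mutants after irradiation. Unirradiated mutants lay below unirradiated wild type, with a log2 fold change of -0.80 ± 0.51 (edgeR adjusted p = 1.0). In the fit of the unirradiated libraries alone it was -0.77 ± 0.18 (adjusted p = 0.0524). Egr1 took 32.3% to 36.4% of the length-scaled sum of the Egr family in the unirradiated libraries and 48.7% to 87.7% in the irradiated ones. The share of 87.7% was in irradiated mutant replicate 1, where Egr1 had its lowest level, 9.81 CPM. Egr3 and Egr2 had 9 and 2 counts in that library, so the share does not show a rise of Egr1. Egr3 took 47.5% to 55.1% in the unirradiated and 9.56% to 39.7% in the irradiated libraries.

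Atf3 (ENSMUSG00000026628.13, chromosome 1, start 191170296, end 191218039) was low, at 28 to 160 counts a library. It was at 1.76 and 3.86 CPM in unirradiated wild-type spleens against 2.57 and 2.70 in their mutant counterparts, with 3.88 and 4.33 CPM for wild type and 3.27 and 8.86 for mutants after irradiation. Irradiated libraries lay above the unirradiated ones of the same genotype, though by little in wild type. The log2 fold change was 0.55 ± 0.61 in wild type (edgeR adjusted p = 0.637) and 1.21 ± 0.60 in mutants (adjusted p = 0.279).

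Ier2 (ENSMUSG00000053560.4, chromosome 8, start 84661331, end 84662852) was at 59.7 and 88.7 CPM in unirradiated wild-type spleens against 44.9 and 61.1 in their mutant counterparts, with 63.4 and 45.2 CPM for wild type and 21.0 and 44.0 for mutants after irradiation. Irradiated mutants had the lowest group mean. Ier2 was the only one of the 10 genes whose mutant libraries did not overlap with wild type after irradiation. They lay below it, as in 7.46% of tested genes. The difference was -0.73 ± 0.42 (edgeR adjusted p = 1.0), and -0.26 ± 0.36 without irradiated mutant replicate 1.

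Over the 10 genes, 0 passed for genotype without irradiation, where 0.0% of all genes were called (0 of 17327, with 388 at an unadjusted p under 0.05 and 60, or 0.346%, called by DESeq2). All 10 log2 fold changes were negative, with a median of -0.54, against -0.025 over all genes. In 6 of the 10 (Fos, Fosb, Jund, Egr1, Egr2 and Egr3) both mutant libraries lay below both wild-type ones, as in 25.0% of all tested genes. Summed T cell markers were also lower in the mutant libraries, at 631.9 and 592.5 CPM against 779.6 and 961.5, as were B cell markers, at 2123 and 2146 CPM against 3267 and 4162. Granulocyte markers (8 genes) were higher, at 3861 and 7097 CPM against 991 and 885. Their part in these differences was not tested. Without irradiated mutant replicate 1 the fit called 0.0801% of genes and 0 of the 10.

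For genotype 7 days after irradiation, 0 of the 10 passed, and 0.0% of all genes (0, with 696 at an unadjusted p under 0.05 and 73, or 0.421%, by DESeq2). The median log2 fold change of the 10 was -0.32, against 0.015 over all genes, with 7 below 0. Only Ier2 had both mutant libraries below both wild-type ones, as had 7.46% of tested genes. Without irradiated mutant replicate 1, 2 of the 10 (Jund and Ier2) lay below 0, so most of these directions depended on that library. No gene of the 10 was called in that fit, in which 2.57% of genes were.

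For irradiation in wild type, 0 of the 10 passed in the fit of all libraries, beside 0.0577% of all genes (10 genes); DESeq2 called 6.7% of genes and 0 of the 10. Fos, Jun, Jund and Atf3 had both irradiated libraries above both unirradiated ones, as had 29.7% of tested genes. Fosb, Egr1, Egr2 and Egr3 had both below, as had 27.8%. Without irradiated mutant replicate 1, Fos was called higher and Egr2 and Egr3 lower, in a fit that called 13.0% of all genes. For irradiation in mutants, 0 of the 10 passed beside 0.6% of all genes (104 genes), and 1, Jund, had an unadjusted p under 0.05, as had 22.1% of all genes. With replicate 1 of the irradiated mutants left out, Fos and Jund were called higher, beside 6.89% of genes. With replicate 2 left out, Jund was called higher and 5 genes lower, beside 24.6% of genes: Egr2, Egr3, Ier2 (-1.48 ± 0.39, edgeR adjusted p = 0.0232), Junb (-1.41 ± 0.32, adjusted p = 0.0128) and Egr1 (-1.28 ± 0.34, adjusted p = 0.0250). Jund and Atf3 did not overlap upwards, as 26.9% of tested genes did, and Egr3 and Ier2 downwards, as 25.7% did.

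The difference between the irradiation effects passed for 0 of the 10 genes and for 0.0% of all genes (0, with 277 at an unadjusted p under 0.05 and 4, or 0.0231%, by DESeq2). For Fos it was -0.32 ± 1.0 and for Egr3 0.29 ± 1.33, so the SE was larger than the value for both. Both irradiation contrasts are shown side by side in the plot of fitted changes.

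**Figure D3:**
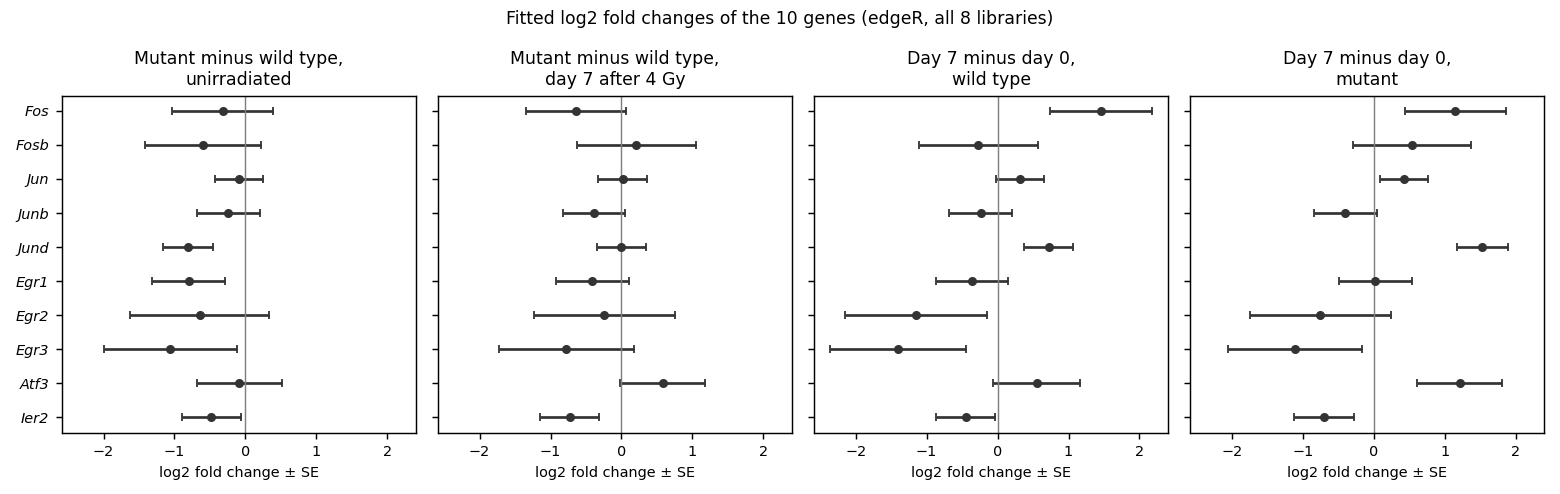
Fitted log2 fold change (horizontal axis, bars are ± 1 SE) of each of the 10 genes in the 4 contrasts between groups, from 1 edgeR fit of all 8 libraries. In unirradiated spleens all 10 points lie below 0. With irradiation Fos, Jun, Jund and Atf3 lie above 0 in both genotypes, and Junb, Egr2, Egr3 and Ier2 below 0. Of these, Fos, Jun, Junb and Egr2 changed sign in mutants when 1 library was left out.

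Egr2, Egr3 and the summed B cell and T cell markers all had their lowest value in the same library, irradiated mutant replicate 1. That library was also the lowest for 7 of the 10 genes and for 22.5% of all tested genes. Against the mean of unirradiated wild type, irradiated mutant replicate 1 had log2 ratios of -5.81 for Egr3, -5.58 for Egr2, -5.56 for summed B cell markers and -2.43 for T cell markers. In irradiated mutant replicate 2 the values were -1.26, -0.49, -1.77 and 0.42. In irradiated wild type they were -1.52 and -1.29 for Egr3, -2.45 and -1.41 for B cell markers, and -0.80 and 0.05 for T cell markers. T cell markers were thus near or above unirradiated wild type in 2 irradiated libraries where Egr3 was lower. Macrophage markers had ratios of 1.5 and 1.2 in irradiated mutants, and granulocyte markers 2.04 and 2.92 in unirradiated mutants, where Egr3 had -1.01 and -1.12. Jund took another course, with ratios of 0.53 to 0.89 in all 4 irradiated libraries, where B cell markers were lower. Hepatocyte markers, genes of liver, summed to 7.55 to 9.68 CPM in the unirradiated libraries and 86.9 to 503 CPM in the irradiated ones, highest in irradiated mutant replicate 1. Between 3 and 5 of the 8 hepatocyte markers were at 0 counts in each unirradiated library, and 0 in the irradiated ones. In irradiated mutant replicate 2 the log2 ratio of adipocyte markers was 3.40 and that of stroma markers 2.27, against at most 0.70 and 1.23 in the other libraries. The part of these lists in the levels of the 10 genes was not tested.

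**Figure D4:**
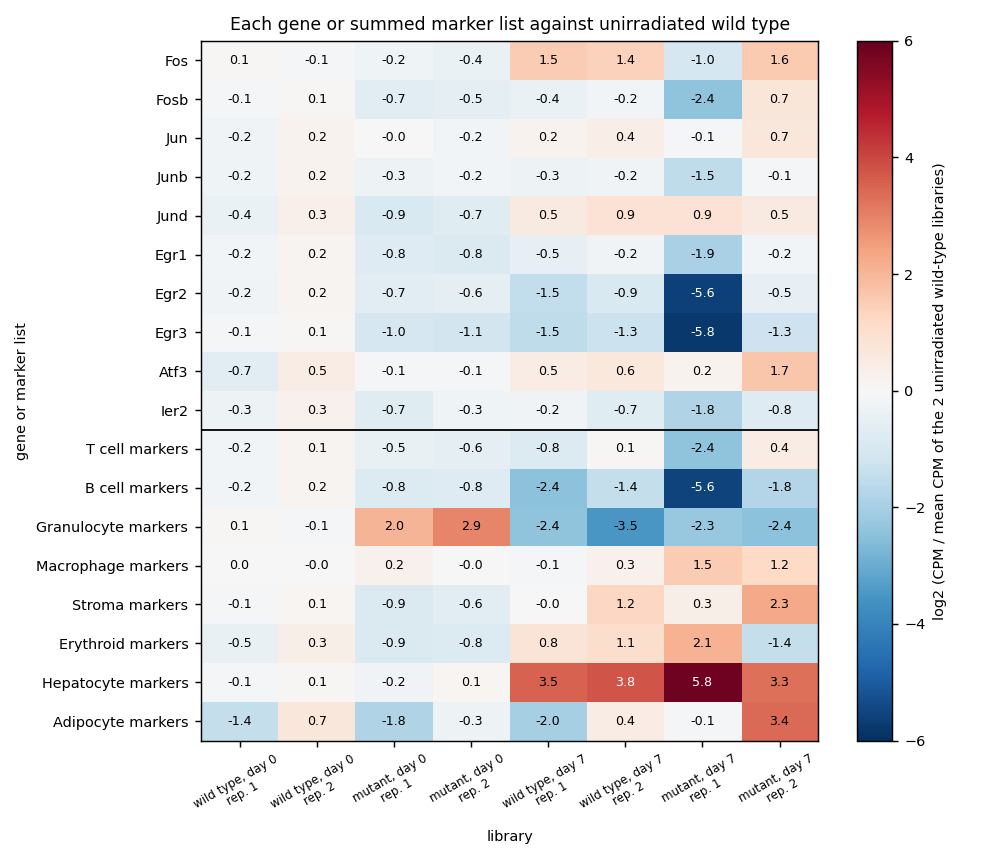
Log2 ratio of each of the 10 genes (upper rows) and of summed cell type marker lists (lower rows) in each library to the mean of the 2 unirradiated wild-type libraries, with red for higher and blue for lower. The darkest blue cells are Egr2, Egr3 and the B cell markers in irradiated mutant replicate 1, at -5.58, -5.81 and -5.56.

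The remaining genes of the response were read from lists. Among 12 other AP-1 and bZIP partners, 0 were called in any contrast by edgeR with all libraries, and 2 and 1 had an unadjusted p under 0.05 for irradiation in wild type and in mutants, as had 17.3% and 22.1% of all genes. The counts at an unadjusted p under 0.05 in the lists that follow stand against the same 17.3% and 22.1%. DESeq2 called 1 of them, Fosl2, in wild type, beside 6.7% of all genes. Without irradiated mutant replicate 1 edgeR called Fosl2 in both genotypes, beside 13.0% and 6.89% of genes; the same shares apply to the lists that follow. The list had median log2 fold changes of 0.64 for irradiation in wild type and 0.60 in mutants, against 0.089 and 0.15 over all genes. Fosl2, the Fos-related antigen 2, was at 11.1 and 9.30 CPM in unirradiated wild-type spleens against 13.8 and 15.6 in their mutant counterparts, with 38.4 and 39.3 CPM for wild type and 22.3 and 48.4 for mutants after irradiation. All 4 irradiated libraries lay above all unirradiated ones, as in 12.8% of all tested genes. Its irradiation difference was 1.93 ± 0.39 in wild type (edgeR adjusted p = 0.126) and 1.27 ± 0.38 in mutants (adjusted p = 0.132). Atf4, the effector of the integrated stress response, was at 235 to 375 CPM in unirradiated libraries, and after irradiation 719 and 507 for wild type and 892 and 241 for mutants. Jdp2, a repressor of AP-1, was at 7.12 to 14.0 CPM in unirradiated and 11.2 to 17.9 CPM in irradiated libraries.

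Of 24 other immediate early genes 22 were tested and 0 were called in any contrast by edgeR with all libraries, while 6 and 4 had an unadjusted p under 0.05 for irradiation in wild type and in mutants. DESeq2 called 2 higher in each (Ccn1 and Klf10, then Ccn2 and Klf10), beside 6.7% and 11.3% of all genes, and Ccn1 lower in mutants after irradiation, beside 0.421%. In the fit lacking irradiated mutant replicate 1, edgeR called 4 of 23 in wild type (Btg2, Ccn1, Ier5 and Klf10, 3 higher and 1 lower) and 1, Gem, higher in mutants. Their medians were 0.66 for irradiation in wild type and 0.22 in mutants, and 12 and 6 of the 22 did not overlap upwards, against 29.7% and 26.9% of all tested genes. Klf10, a repressor induced by TGF-beta, was at 16.7 to 20.9 CPM in the unirradiated libraries and 33.9 to 46.5 CPM in the irradiated ones. Ier3 was at 4.88 to 7.17 and 11.04 to 19.4 CPM. For both genes all irradiated libraries lay above all unirradiated ones, as for 12.8% of all tested genes. Nr4a1, an orphan nuclear receptor used as a reporter of antigen receptor signalling, was at 39.7 and 49.8 CPM in unirradiated wild-type spleens against 35.1 and 34.9 in their mutant counterparts, with 48.3 and 53.3 CPM for wild type and 11.2 and 29.2 for mutants after irradiation. Both irradiated mutant libraries lay below both irradiated wild-type ones, as in 7.46% of tested genes. The genotype difference after irradiation was -1.32 ± 0.43 (unadjusted p = 0.0154, edgeR adjusted p = 1.0). The value of 11.2 CPM came from irradiated mutant replicate 1, which had the lowest B cell and T cell marker sums.

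Of 16 feedback inhibitors, 0 were called by edgeR with all libraries, with 3 and 2 at an unadjusted p under 0.05 for irradiation in wild type and in mutants. DESeq2, and edgeR without irradiated mutant replicate 1, each called Dusp1 and Per1 higher in wild type and Dusp4 lower in both genotypes. The latter fit also called Per1 lower in mutants after irradiation, beside 2.57% of genes. The medians with irradiation were -0.11 and -0.02. The members went in opposite directions. Dusp1, the phosphatase that switches off stress kinases, was at 20.6 to 24.2 CPM in the unirradiated libraries, and after irradiation 109.7 and 73.5 for wild type and 79.1 and 32.7 for mutants (2.09 ± 0.44 in wild type, edgeR adjusted p = 0.128). Dusp4, a nuclear phosphatase of MAP kinases, was at 3.86 to 8.98 CPM in the unirradiated and 0.180 to 1.24 CPM in the irradiated libraries. The value of 0.180 CPM, in irradiated wild-type replicate 1, lay under the floor of 0.270 CPM in that library. All irradiated libraries thus lay above all unirradiated ones for Dusp1, as for 12.8% of all tested genes, and below them for Dusp4, as for 14.2%. Dusp2, a phosphatase of activated lymphocytes, was at 80.5 and 110 CPM in unirradiated wild-type spleens against 48.7 and 53.2 in their mutant counterparts, with 60.9 and 58.7 CPM for wild type and 8.99 and 46.9 for mutants after irradiation. Nab2, the corepressor of Egr proteins, was at 21.7 and 29.3 CPM in unirradiated wild type and 13.8 and 14.9 in unirradiated mutants.

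Upstream factors and kinases lay near all genes, with 0 of 16 called by edgeR with all libraries, 1 and 3 at an unadjusted p under 0.05, and medians of -0.08 and 0.12 with irradiation. DESeq2 called 1 of them, the kinase gene Mapk14, lower in mutants, and edgeR lacking irradiated mutant replicate 1 called it too, with Atf1 higher in wild type. Srf, the factor that binds the CArG box, was at 94.4 and 102 CPM in unirradiated wild-type spleens against 75.9 and 84.4 in their mutant counterparts, with 58.5 and 82.7 CPM for wild type and 35.6 and 52.1 for mutants after irradiation.

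Heat shock genes, chaperones that also respond to tissue handling, had 0 of 12 called by edgeR with all libraries, 4 and 4 at an unadjusted p under 0.05, and medians of 0.53 and 0.52 with irradiation. DESeq2 called 3 higher in wild type (Bag3, Hspa1a and Hspa1b) and the same 3 with Hspb1 in mutants. In a fit without irradiated mutant replicate 1, edgeR called 3 in wild type and 3 in mutants, Hspa1a and Hspa1b in both. Hspa1b, an inducible HSP70, was at 0.791 and 1.39 CPM in unirradiated wild-type spleens against 0.654 and 0.884 in their mutant counterparts, with 7.93 and 10.6 CPM for wild type and 4.32 and 5.43 for mutants after irradiation. Its irradiation difference was 3.09 ± 0.51 in wild type (edgeR adjusted p = 0.0951) and 2.66 ± 0.51 in mutants (adjusted p = 0.0713). In all 4 irradiated libraries Hspa1b lay above all unirradiated ones, as did 12.8% of all tested genes. Hspa1a, its near-identical copy, was at 0.174 to 0.615 and 1.64 to 4.06 CPM. The handling of reads shared by both copies is not stated, so the split between them is uncertain. Bag3, a cochaperone of HSP70, was at 9.41 to 12.7 and 20.8 to 27.1 CPM. Hspa1a and Bag3 thus separated as Hspa1b did. In irradiated mutant replicate 1, where Fos, Fosb, Egr2 and Egr3 had their lowest values, these 3 genes were above every unirradiated library.

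By the rule of likeness, the genes closest to the mean log2 CPM of the 10 over the 8 libraries were Nfkbia, Rrad, Rras2, Cd3d, Nsg2, Il2rg, Skap1 and Lck, with Pearson r from 0.971 to 0.987 among 10774 candidates. Nfkbia, the inhibitor of NF-kB, was at 136 and 149 CPM in unirradiated wild-type spleens against 107 and 109 in their mutant counterparts, with 136 and 159 CPM for wild type and 57.7 and 164 for mutants after irradiation. Cd3d, a subunit of the T cell receptor complex, was at 68.8, 116, 56.8, 53.8, 62.1, 114, 16.8 and 145 CPM in the same order of libraries, and Lck, the kinase of that receptor, at 193, 259, 137, 149, 138, 227, 47.0 and 234 CPM. These 8 points share their scaling, and r was 0.863 to 0.941 over the 7 libraries other than irradiated mutant replicate 1.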

How the data were processed

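The authors deposited raw counts, whole numbers of reads assigned to each gene in each library. Tools named in the submitters' processing notes are Trim Galore, Subread and featureCounts, and the builds named are hg38 and mm10; which versions, annotation, strand setting and multi-mapping rule applied is not stated. The labels' growth protocol describes human cells, which were not analysed here. Symbols were matched to GENCODE M21 (GRCm38) for 52403 of 52636 identifiers, and exon lengths came from the same annotation. A filter (filterByExpr, minimum count 10, minimum total 15) and TMM scaling preceded edgeR 4.0.16 in R 4.3.3. One quasi-likelihood fit of 8 libraries had a term per group (4 residual degrees of freedom); p-values were adjusted by Benjamini-Hochberg over all 17327 genes, and 0.05 was the threshold. Each SE was derived from the fold change and its F statistic. DESeq2 1.42.0 was an alternative. The procedure was also run on simulated data with the same dispersion for every gene and group. The spread here differed between groups, so that run does not bear on the calls. In every group the replicates differed by more than sampling noise. The labels do not say that they came from separate mice, so the p-values cover the spread between these libraries, which may be technical. Floors cover counting error only.

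The 10 genes, the lists and the rule for named genes were chosen with earlier results of these data known. Named were the 10 genes, up to 4 genes per list with the smallest p in the irradiation and in the genotype contrasts, of which the text gives some, and the 8 genes of at least 5 mean CPM that correlated best with the mean log2 (CPM + 0.5) of the 10. Prdx2 and Junos are named because they overlap 2 of the 10. Alternatives were other size factors, DESeq2, no filter, fits of 2 groups, a replicate term and leaving out each library.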

Additional observations from a re-analysis of the deposited data

Results flagged for a closer look

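Ccn1, a matricellular immediate early gene, was drawn to attention because its irradiated libraries lay above the unirradiated ones in wild type and below them in mutants. Taken singly, 29.7% of tested genes separated upwards in wild type and 25.7% downwards in mutants. Wild type went from 5.01 and 5.69 CPM to 28.03 and 15.7 CPM, and mutants from 10.2 and 4.70 CPM to 4.44 and 3.27 CPM. The difference between the irradiation effects was -2.99 ± 0.69 on the log2 scale (unadjusted p = 0.0027, edgeR adjusted p = 1.0). Leaving out irradiated mutant replicate 1, it was -3.20 (adjusted p = 0.138). Nr4a2, an orphan nuclear receptor, was at 1.71 and 1.26 CPM in unirradiated wild-type spleens against 1.96 and 2.09 in their mutant counterparts, with 3.43 and 5.48 CPM for wild type and 1.75 and 2.66 for mutants after irradiation. Mutants thus lay above wild type without irradiation and below it after irradiation, with a difference of -1.43 ± 0.72 (edgeR adjusted p = 1.0). Taken singly, 20.8% of tested genes separated upwards without irradiation and 7.46% downwards after it.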

How the results depend on the processing

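Over the 10 genes and 5 contrasts, 574 of 640 values under an alternative kept their sign and side of the threshold, 20 passed it newly and 46 changed sign; 24 of these 46 came from leaving out an irradiated mutant library. The cause was not tested for these changes. The fit of all libraries called 0 of the 10 in every contrast, so no call could be lost. In contrasts between 2 groups, leaving out a library of another group hardly moved the fold change. It could move the SE and with it the call. Without either irradiated mutant library, Fos, Egr2 and Egr3 passed for irradiation in wild type. The number of unchanged values is therefore no measure of stability. Genes of the 10 called: genotype without irradiation 0 (1 in the fit of 2 groups), irradiation in wild type 0 (1 without the filter, 1 in the fit of 2 groups), irradiation in mutants 0 (1 with DESeq2, 1 without the filter); leaving out 1 library gave 0 to 3 in wild type, 0 to 6 in mutants, 0 to 2 for genotype 7 days after irradiation and 0 elsewhere. All genes called: genotype without irradiation 0 (60 with DESeq2, 143 without the filter, 469 in the fit of 2 groups, 0 to 15 with 1 library left out), genotype after irradiation 0 (73, 168, and 0 to 482 left out), irradiation in wild type 10 (1161, 1580, 1107 and 0 to 2551), irradiation in mutants 104 (1962, 2147, 0 and 3 to 4428) and the difference of the effects 0 (4 with DESeq2, 52 without the filter).

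The labels do not say that a replicate number marks a shared litter, batch or day. Deviations of same-numbered libraries correlated at 0.0349 to 0.465, positive in all 6 pairs of groups, a hint of pairing from the data and not the design, but under 0.1 in 2 of them, so pairing was not established and a shared batch cannot be told apart. With a replicate block 16 genes were called for irradiation in wild type and 253 in mutants, none of the 10 among them (Jund in mutants had an edgeR adjusted p of 0.0713), and 6 small values changed sign: Atf3 (0.027) for genotype without irradiation, Fosb (-0.0085), Jun (-0.016) and Jund (0.026) after irradiation, Egr1 (-0.13) for irradiation in mutants and Egr3 (-0.094) for the difference of the effects. Jund after irradiation was 7e-04 with the other size factors and 5.5e-04 with DESeq2, and Egr1 in irradiated mutants -0.036, -0.039 and, without the filter, -0.091. With 1 library left out, signs turned within these ranges of log2 fold change. Genotype without irradiation: Jun -0.29 to 0.13, Atf3 -0.55 to 0.58. Genotype after irradiation: Jun -0.50 to 0.40, Jund -0.17 to 0.18, Egr2 -4.44 to 0.70, Fos -2.55 to 0.16, Junb -1.32 to 0.18, Egr1 -1.62 to 0.25, Egr3 -4.46 to 0.18, Fosb -2.19 to 1.03, Atf3 -0.39 to 1.15. Irradiation in mutants: Egr1 -1.28 to 0.59, Junb -1.41 to 0.085, Egr2 -5.04 to 0.10, Fos -0.86 to 1.85, Fosb -1.95 to 1.26, Jun -0.18 to 0.71. Difference of the effects: Junb -1.10 to 0.40, Ier2 -0.97 to 0.20, Jun -0.44 to 0.47, Atf3 -0.33 to 1.20, Fos -2.25 to 0.46, Fosb -1.61 to 1.6, Egr1 -0.85 to 1.03, Egr2 -3.83 to 1.32, Egr3 -3.41 to 1.22.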
